A study of Mus musculus with 4 samples.

Results

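Amino acid transporters carry amino acids across the plasma membrane and the membranes of organelles, and the genes described here are those of the solute carrier families Slc1, Slc3, Slc6, Slc7, Slc36, Slc38 and Slc43. A probe was included where its RefSeq accession mapped to a gene symbol of these families, which gave 86 probes for 60 genes among the 22907 gene symbols on the array. RNA was measured on 4 arrays, each with 1 color, 2 of ID8G cells and 2 of GO2 cells. ID8G cells are ID8 mouse ovarian cancer cells, a line that arose from ovarian surface epithelium, that carry GFP from a retrovirus. GO2 cells descend from ID8G cells through 2 rounds of intraperitoneal growth in female C57BL/6J mice, with GFP-positive, CD45-negative cells sorted from omental tumors after each round. Both lines therefore carry GFP, and both were kept in the same DMEM with 4% FBS, insulin, transferrin and selenite before RNA was extracted. GO2 is a single selected line, and the labels do not say that its 2 arrays, or those of ID8G cells, came from separate cultures, so p-values measure the spread between these arrays, which may be technical. The comparison asks which carriers differ between the selected and the parental line.

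Carriers of the Slc7 family fall into 2 groups. The light chains, such as Slc7a5, Slc7a7 and Slc7a11, reach the cell surface only when bound to a heavy chain of the Slc3 family, mostly Slc3a2 (also known as CD98), and they exchange an amino acid inside the cell for another outside. The cationic carriers, such as Slc7a1, Slc7a2 and Slc7a3, need no heavy chain and take up arginine, lysine and ornithine. Carriers of the Slc38 family, and Slc1a4 and Slc1a5 of the Slc1 family, move neutral amino acids such as alanine, serine and glutamine together with sodium. The other Slc1 carriers are high-affinity glutamate carriers. In tumor cells these proteins supply leucine for mTORC1 signaling, cystine for glutathione and glutamine for growth. Several of their genes, among them Slc7a11, Slc7a5, Slc7a3, Slc3a2 and Slc38a2, are known targets of the transcription factor ATF4 when amino acids are scarce.

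The upstream sequence of Slc7a11 is shown because its RNA was lower in GO2 cells and because it holds the amino acid response element to which ATF4 binds, searched as TGATGNAA on both strands. Of the 5 windows of Slc7a7, whose RNA was higher in GO2 cells, the 2 that hold a match are shown beside it. Each is the 250 bases before a transcript start on the minus strand in RefSeq (GRCm38.p6), written 5′ to 3′, at chr3:50443614-50443863 for Slc7a11 and at chr14:54417703-54417952 and chr14:54417945-54418194 for Slc7a7, with matches to the element in capitals.
Slc7a11: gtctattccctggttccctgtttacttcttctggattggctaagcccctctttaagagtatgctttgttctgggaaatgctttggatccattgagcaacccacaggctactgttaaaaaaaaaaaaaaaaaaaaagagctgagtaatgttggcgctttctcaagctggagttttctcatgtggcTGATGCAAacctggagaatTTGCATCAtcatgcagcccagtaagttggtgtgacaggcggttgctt
Slc7a7, window 54417703-54417952: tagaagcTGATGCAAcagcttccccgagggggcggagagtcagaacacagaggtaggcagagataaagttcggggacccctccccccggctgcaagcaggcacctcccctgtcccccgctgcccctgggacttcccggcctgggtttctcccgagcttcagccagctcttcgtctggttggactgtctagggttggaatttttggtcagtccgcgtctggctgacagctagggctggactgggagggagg
Slc7a7, window 54417945-54418194: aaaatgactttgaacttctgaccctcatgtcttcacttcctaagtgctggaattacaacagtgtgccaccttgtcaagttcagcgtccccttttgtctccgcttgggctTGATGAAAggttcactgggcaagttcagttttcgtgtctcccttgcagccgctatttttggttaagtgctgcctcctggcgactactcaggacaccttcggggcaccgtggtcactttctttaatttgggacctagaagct
Slc7a11 held 2 matches, which began 66 and 47 bases before the transcript start and lay on opposite strands. The 2 windows of Slc7a7 that are shown held 1 match each, which began 243 and 141 bases before their starts, and its other 3 windows and the 3 of Slc38a4 held none. Among the 63 windows available for 42 of the transporter genes, 4 (6.35%) held a match, and among all 32851 windows 1134 (3.45%) did. The antioxidant response element TGACNNNGC, which NRF2 binds, was present in 8 (12.7%) of the transporter windows and 3338 (10.2%) of all windows. Only Slc7a7, Slc7a11 and Slc38a4 among the called genes had windows here, and 0 of their 9 held it. A match describes the sequence and does not show that a factor is bound there.

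Throughout, a level is the log2 intensity of a probe minus the 75th percentile of its array, so that 0 is the level of a fairly bright probe, and a difference is the mean level in GO2 cells minus that in ID8G cells. Testing required that a probe was well above background in both replicates of 1 line or of both. It was called where the adjusted p (limma, Benjamini-Hochberg) was below 0.05 and the difference at least 1 on the log2 scale, which is 2-fold. A gene was called where at least 1 tested probe was called and none was called in the other direction. The arrays had 27502 to 28841 probes well above background and no saturated spots. The 7 spike-in RNAs lay 0.15 to 0.28 higher on the GO2 arrays after this scaling. Epithelial and mesothelial markers (Krt8, Krt18, Cdh1, Wt1, Msln) were present in both lines, while Epcam and Krt7 were not above background on any array. The macrophage markers Ptprc, Adgre1 and Lyz2 and the endothelial markers Cdh5, Kdr and Tek were not above background on any array either. The remaining markers of these lists, Csf1r and Cd68 for macrophages and Pecam1 for endothelium, were above background on every array of both lines. The number of arrays limits the precision of every value.

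Of the 60 transporter genes, 28 could be tested, through 40 probes. The remaining 32 were not tested, and 31 of these were not well above background on any array. The high-affinity glutamate carriers (Slc1a1, Slc1a2, Slc1a3, Slc1a6 and Slc1a7) were all among these 31 genes. The same was true of the monoamine carriers Slc6a2, Slc6a3 and Slc6a4, the glycine carrier Slc6a5, and the renal and intestinal carriers Slc6a18, Slc6a19, Slc7a9 and its heavy chain Slc3a1. In the Slc6 family 3 of 18 genes were tested, in the Slc7 family 9 of 15, and in the Slc38 family 8 of 11.

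**Figure D1:**
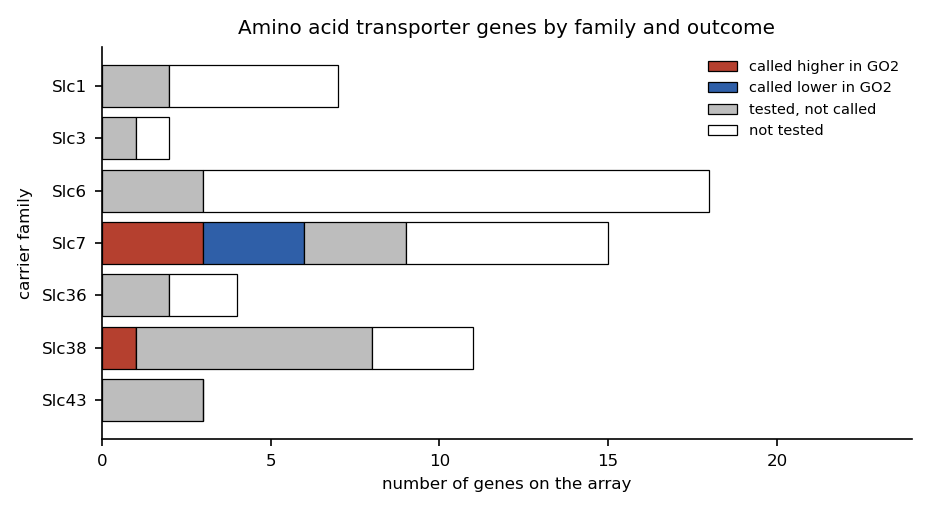
Number of genes on the array in each carrier family (horizontal bars), divided into genes called higher or lower in GO2 cells, genes tested and not called, and genes not tested. The 15 Slc7 genes divide into 3 higher, 3 lower, 3 tested and not called and 6 not tested, and outside Slc7 a single Slc38 gene was called.

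A total of 4 genes were called higher in GO2 cells (Slc7a2, Slc7a4, Slc7a7 and Slc38a4) and 3 lower (Slc7a3, Slc7a5 and Slc7a11). Over all 22060 gene names tested, 5.07% were called higher and 3.74% lower, and over all 28344 probes 4.51% and 3.34%. The transporters were therefore called in 25% of tested genes against 8.81% of all genes. For 2 of the 40 probes, those of Slc38a4 and Slc7a3, only 1 line was above background on both arrays and the other on neither. The dimmer Slc7a11 probe, through which that gene was called, was above background on both ID8G arrays and 1 GO2 array. These probes entered the test through the line in which they were brighter, and 37 probes were above background on all 4 arrays. When signal on all 4 arrays was required, 3 transporter genes were called higher and 1 lower. In the Slc7 family 6 of 9 tested genes were called, and in the other families 1 of 19. The median size of the difference, without its sign, was 1.04 over the 11 Slc7 probes, 0.21 over all 40 transporter probes and 0.20 over all probes tested. The median difference with its sign was -0.07 for the transporters and -0.02 for all probes. In RNA from whole cultures, fewer cells with a transcript and less of it in each cell cannot be told apart.

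**Figure D2:**
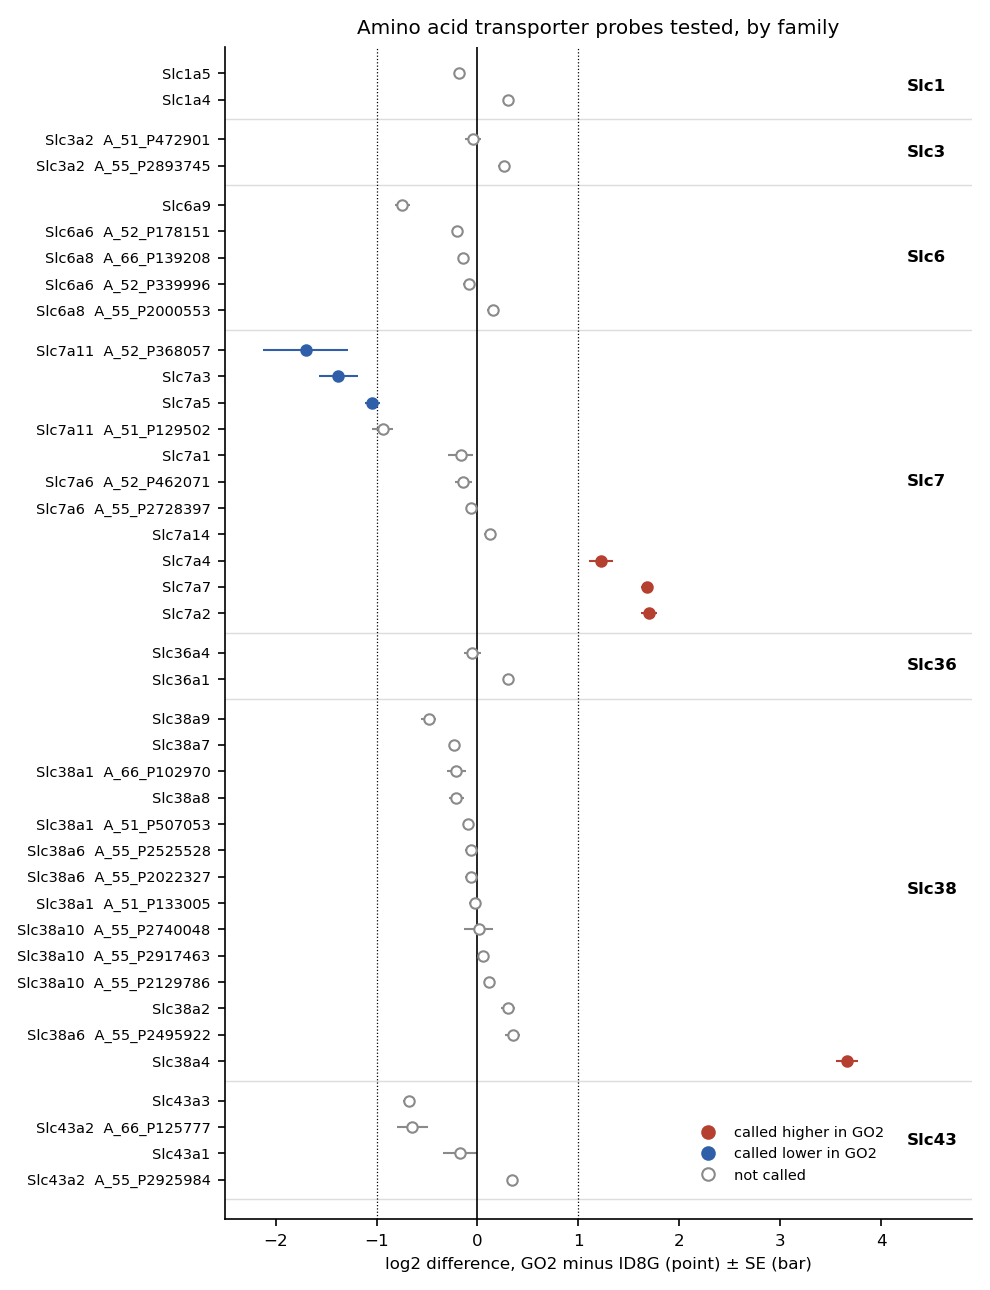
Difference between GO2 and ID8G cells on the log2 scale (point) with its SE (bar) for each of the 40 transporter probes tested, grouped by family. Filled points are called, open points are not, and dotted lines mark 2-fold. Most open points lie close to 0, and 29 of the 40 probes differ by less than 0.5. Over all 28344 probes tested, 22730 did.

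Among the cationic carriers, Slc7a2, Slc7a3 and the related Slc7a4 were called, in different directions, and Slc7a1 was not. Slc7a2 encodes a carrier of arginine, lysine and ornithine that is known from liver, muscle and activated macrophages. Its probe A_55_P2849189 had levels of -1.33 and -1.21 in ID8G cells and of 0.37 and 0.50 in GO2 cells. Both GO2 arrays were above both ID8G arrays by far more than the arrays of a line differed from each other. The difference was 1.70 ± 0.08 (SE), or 3.25-fold, with an adjusted p of 0.000696 (limma).

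Slc7a4 resembles the cationic carriers in sequence, although transport by its protein has been hard to show. The levels of its probe A_66_P138484 were -1.81 and -1.95 in ID8G cells and -0.80 and -0.52 in GO2 cells. Here too both GO2 arrays lay above both ID8G arrays, and the GO2 arrays differed more from each other than the ID8G arrays did. The difference was 1.22 ± 0.12 (SE), or 2.34-fold, with an adjusted p of 0.00439 (limma).

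Slc7a3, a cationic carrier found mainly in brain, went the other way. Its probe A_55_P1988384 had levels of -3.15 and -2.95 in ID8G cells and -4.67 and -4.18 in GO2 cells, where neither array had it well above background. It was therefore at least 1.69-fold lower in GO2 cells, with measured means of -3.05 and -4.43 and an adjusted p of 0.0105 (limma). The call was lost with normexp background correction, where the difference was -0.56, and with dim values set to the lowest level well above background, where it was -0.76.

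Slc7a1, the cationic carrier that most cells use, had levels of 4.80 and 5.11 in ID8G cells and 4.73 and 4.84 in GO2 cells. The arrays of the lines overlapped, and the difference of -0.17 ± 0.12 (SE) did not pass the test (adjusted p = 0.35, limma). Slc7a14, a lysosomal relative, had a difference of 0.12 (adjusted p = 0.148).

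Among the light chains, Slc7a7 was higher and Slc7a5 and Slc7a11 were lower in GO2 cells. Slc7a7 releases arginine and lysine from cells in exchange for neutral amino acids and sodium, and its loss in humans causes lysinuric protein intolerance. Its probe A_51_P472249 had levels of -0.86 and -0.83 in ID8G cells and 0.79 and 0.88 in GO2 cells. The lines were clearly apart, and the arrays within a line nearly coincided. The difference was 1.68 ± 0.06 (SE), or 3.20-fold, and the adjusted p was 0.000426 (limma). The closely related Slc7a6, which does the same exchange, had differences of -0.06 and -0.14 on its 2 probes, neither of which passed the test (adjusted p = 0.444 and 0.252).

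Slc7a5 takes up leucine and other large neutral amino acids in exchange for glutamine. Its probe A_55_P2017972 had levels of -0.86 and -0.72 in ID8G cells and -1.87 and -1.80 in GO2 cells. Both GO2 arrays lay below both ID8G arrays. The difference was -1.04 ± 0.07 (SE), so that GO2 cells had 48.6% of the ID8G level, with an adjusted p of 0.00184 (limma). This value is close to the 2-fold limit. It fell short of the limit with normexp background correction (-0.78, adjusted p = 0.000464) and without the second ID8G array (-0.98, adjusted p = 0.00842).

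Slc7a11 imports cystine in exchange for glutamate and thereby supplies cysteine for glutathione. Its brighter probe A_51_P129502 had levels of -0.20 and 0.07 in ID8G cells and -1.01 and -0.99 in GO2 cells. The dimmer probe A_52_P368057 had levels of -2.38 and -1.54 in ID8G cells and -4.09 and -3.23 in GO2 cells, and was above background on 1 of the 2 GO2 arrays. On both probes the GO2 arrays were below the ID8G arrays, and the arrays of a line differed much more from each other on the dimmer probe.

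The gene was called through the dimmer probe, with a difference of -1.70 ± 0.42 (SE) and an adjusted p of 0.0436 (limma). On the brighter probe the difference of -0.94 ± 0.11 (SE) had an adjusted p of 0.00636 (limma) but was less than 2-fold. The call of the dimmer probe was lost when the second ID8G array was left out (adjusted p = 0.108), and likewise without the first (0.121) or the second GO2 array (0.0512). The brighter probe was called without the first ID8G array (-1.07) and with scaling to the spike-ins (-1.15). When the probes of a gene were averaged, the mean of both Slc7a11 probes was called (-1.32), which draws on the dimmer probe too.

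**Figure D3:**
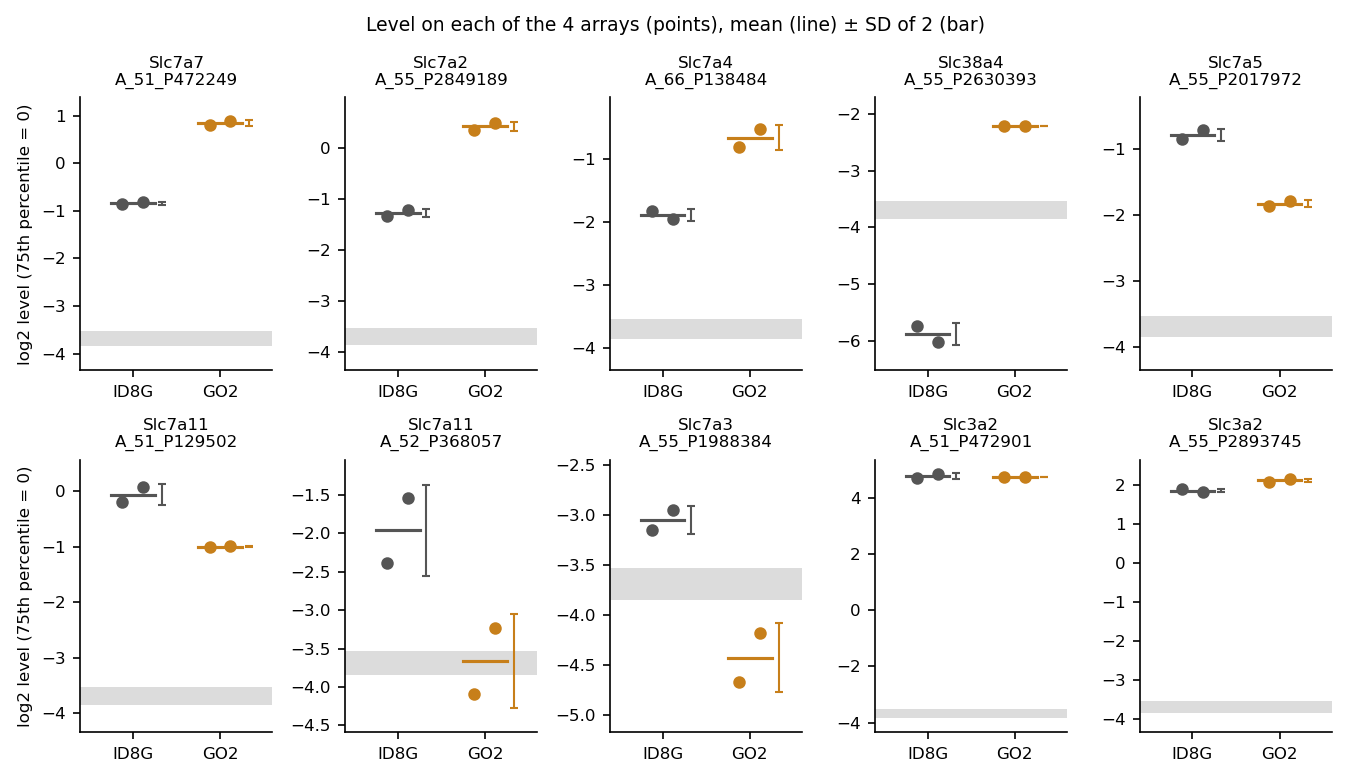
Level of each called transporter and of Slc3a2 on the 4 arrays (points, log2, 0 being the array's 75th percentile), the mean of each line (horizontal line) and the SD of its 2 arrays (bar). Panels have their own vertical scales, and the gray band spans the lowest level well above background on the arrays, from -3.85 to -3.53. Slc38a4 in ID8G cells and Slc7a3 in GO2 cells lie below the band.

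The heavy chain Slc3a2, which Slc7a5, Slc7a6, Slc7a7 and Slc7a11 share, was not called on either of its probes. A_51_P472901 had levels of 4.70 and 4.86 in ID8G cells and 4.73 and 4.74 in GO2 cells, and A_55_P2893745 had 1.88 and 1.82 in ID8G cells and 2.08 and 2.14 in GO2 cells. The arrays of the lines overlapped on the first probe and were apart on the second. The differences were -0.05 ± 0.08 (SE; adjusted p = 0.668) and 0.26 ± 0.06 (SE; adjusted p = 0.034, limma). The second value passed the adjusted p but was 1.20-fold, and it came to 0.05 with scaling to the spike-ins. The light chains Slc7a8, Slc7a9 and Slc7a10 were not above background on any array.

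Of the sodium-coupled carriers of neutral amino acids, Slc38a4 was called higher and the others were not called. Slc38a4 is known from liver and placenta and is imprinted in the mouse, with expression from the paternal allele. Its probe A_55_P2630393 had levels of -5.74 and -6.02 in ID8G cells, not well above background, and -2.22 and -2.21 in GO2 cells. It was at least 2.76-fold higher in GO2 cells, with measured means of -5.88 and -2.21 and an adjusted p of 0.000305 (limma). The second probe of the gene, A_52_P48569, was not above background on any array, so that the call rests on 1 probe.

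Slc38a2, a widely expressed carrier that cells induce when amino acids run short, had levels of 3.99 and 3.88 in ID8G cells and 4.28 and 4.20 in GO2 cells. Its arrays did not overlap, and the difference of 0.31 ± 0.07 (SE) passed the adjusted p (0.0357, limma) but was only 1.24-fold. The 3 probes of Slc38a1, which takes up glutamine, differed by -0.21 to -0.03, and none passed the test. Slc1a5, the main glutamine exchanger of many tumor cells, had levels of 1.89 and 1.96 in ID8G cells and 1.76 and 1.72 in GO2 cells, a difference of -0.18 ± 0.06 (SE) that did not pass the test (adjusted p = 0.077). Slc1a4, which exchanges alanine, serine and cysteine, had a difference of 0.31 ± 0.06 (SE; adjusted p = 0.0222), or 1.24-fold. Slc38a5, another glutamine carrier, was not above background on any array.

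Several further carriers passed the adjusted p without reaching 2-fold. Slc6a9, which carries glycine, had levels of 4.35 and 4.50 in ID8G cells and 3.64 and 3.72 in GO2 cells. Its difference was -0.74 ± 0.08 (SE; adjusted p = 0.00523), so that GO2 cells had 59.7% of the ID8G level. Slc43a3, which despite its family takes up purine bases, had levels of 2.08 and 2.05 in ID8G cells and 1.43 and 1.34 in GO2 cells, with a difference of -0.68 ± 0.06 (SE; adjusted p = 0.00344). For both genes every GO2 array lay below every ID8G array.

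Slc38a9, which reports arginine in the lysosome to mTORC1, differed by -0.48 ± 0.07 (SE; adjusted p = 0.0134). The 2 probes of Slc43a2, a carrier of branched-chain and aromatic amino acids, disagreed although both were designed on the same transcript. A_66_P125777 differed by -0.64 (adjusted p = 0.0383) and A_55_P2925984 by 0.35 (adjusted p = 0.0129), so no direction can be given for this gene. Of the 3 probes of Slc38a6, the brightest differed by 0.35 (adjusted p = 0.0285) and the others by -0.07 each, which did not pass the test. In all, 33 probes were not called, with differences from -0.94 to 0.35, and 21 of these did not pass the adjusted p. The direction of 8 of the 33 changed with the way the arrays were scaled or corrected for background. That of no called probe did, but called probes differ by at least 1 by definition. Scaling to the spike-ins, for example, shifted a difference by only -0.21.

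Markers of other cell types were measured beside these differences. Of the 6 fibroblast markers 3 were called higher in GO2 cells (Pdgfra, Col1a1 and Col3a1), Dcn was not called, with levels of 6.07 and 6.01 in ID8G cells and 5.41 and 5.42 in GO2 cells, Lum and Thy1 were not above background on any array, and the summed linear level of the list was 68.4 to 71.2 in ID8G cells and 130 in GO2 cells. The summed level of the 6 epithelial markers was 543 to 561 in ID8G cells and 284 to 285 in GO2 cells, with Krt19 called lower. That of the 5 macrophage markers was 2.44 to 2.47 and 2.65 to 3.06, with none called. Among the 4 adipocyte markers Fabp4 was called lower and Adipoq, Cfd and Plin1 were not above background, and the summed level was 0.478 to 0.518 and 0.117 to 0.153. The summed level of the 6 markers of ovarian surface or mesothelial cells was 490 to 492 and 320 to 323, with Upk3b called higher. Krt8 and Krt18 are in both the mesothelial and the epithelial list, so the sums of these lists overlap and are not separate observations. The summed level of the 4 endothelial markers was 0.144 to 0.168 and 0.157 to 0.161, with none called. The part of such cells in the transporter differences was not tested.

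Genes that act on the same amino acids were compared through 10 lists. The counts of each list stand beside the 5.07% of all gene names tested that were called higher and the 3.74% called lower. The first list held 24 genes, Atf4 itself and targets of ATF4 other than the carriers, and all were tested. Of these, 3 were called higher (Cth, Stc2 and Vldlr) and 3 lower (Ddit4, Gdf15 and Fgf21), and the median difference was -0.11. Ddit4, an inhibitor of mTORC1, differed by -1.80 ± 0.05 (SE), and Gdf15, a secreted stress hormone, by -1.28 ± 0.09. The hormone Fgf21 was at least 1.69-fold lower. Cth, which makes cysteine from cystathionine, was not above background in ID8G cells and was at least 2.32-fold higher in GO2 cells, the secreted glycoprotein Stc2 was at least 3.80-fold higher, and the brighter of 2 probes of the lipoprotein receptor Vldlr differed by 2.29 ± 0.05.

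The enzymes of arginine and creatine held the largest difference of these lists. Gatm, which makes the creatine precursor guanidinoacetate from arginine and glycine, had levels of -5.66 and -5.96 in ID8G cells, not above background, and 1.04 and 0.94 in GO2 cells, at least 25.3-fold higher (adjusted p = 0.000188, limma). Of the 17 tested genes of this list 3 were called lower. Ass1, which makes argininosuccinate on the way to arginine, differed by -1.03 ± 0.10 (SE), and the nitric oxide synthase Nos3 by -1.32 ± 0.08. Sat1, which acetylates polyamines, lay just past the 2-fold limit on 1 of its 2 probes, with levels of 2.97 and 2.92 in ID8G cells and 2.01 and 1.88 in GO2 cells. The median of the list was 0.00.

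Glul, which makes glutamine, and Gpt2, the mitochondrial alanine aminotransferase, were called higher among 10 tested enzymes of glutamine, glutamate, aspartate and alanine, with differences of 1.82 ± 0.10 (SE) and 1.61 ± 0.09 and both probes of each gene called. The list had a median of -0.17. Among 16 enzymes of cysteine, methionine and glutathione, Cth and Ggt7 were called higher, the latter at least 1.38-fold, and the median was -0.02. Of 20 cytosolic aminoacyl-tRNA synthetases only Farsa, the catalytic chain of the phenylalanine enzyme, was called, 1.35 ± 0.07 (SE) higher on its brightest probe and on all 3 probes, and the median was 0.01. Gpt2 and Farsa lie in a run of neighboring genes from Il27ra to Abcc12, known from earlier results of these data, in which 30 of 56 tested genes were called higher and the median difference was 0.95. No transporter gene lies in that run.

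The lists with few calls complete the comparison. Of 30 tested genes that sense amino acids upstream of mTORC1, Sesn3 alone was called, at -1.38 ± 0.06 (SE), and the median was 0.07. Among 15 other carriers of amino acids and peptides, the lysosomal cysteine carrier Mfsd12 was called higher, at least 1.75-fold, and Slc16a10, which carries aromatic amino acids, lower, at -1.06 ± 0.05 (SE), with a median of -0.03. With limma, 0 genes were called among 16 enzymes of serine, glycine and one-carbon metabolism, 15 of branched-chain and aromatic amino acids, and 11 partners and regulators of the carriers, where 5, 4 and 7 genes had an unadjusted p below 0.05, as had 48.6% of all genes tested. The medians of these lists were -0.05, 0.04 and -0.30. The methods' t-test is a t-test of each probe with Welch's correction. The paper names such a test for comparisons of groups in general and names none for its arrays. With the methods' t-test after Benjamini-Hochberg adjustment, 0 genes were called in any of the 10 lists. Every call given above for them was thus lost. The share of all genes called with that test is not given here, so this loss cannot be read as a trait of these genes. Other settings also lowered the counts. With normexp background correction the other carriers had 0 called genes, and 1 enzyme of cysteine, methionine and glutathione was called. With dim values set to the lowest level well above background, 0 other carriers and 1 enzyme of cysteine were called higher. The filter for signal on all 4 arrays left 1 ATF4 target called higher and 0 genes called higher among the other carriers, the enzymes of cysteine and those of arginine. Without the first ID8G array or the second GO2 array, 1 enzyme of arginine was called lower in place of 3 and 1 enzyme of cysteine higher in place of 2, the latter also without the first GO2 array.

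**Figure D4:**
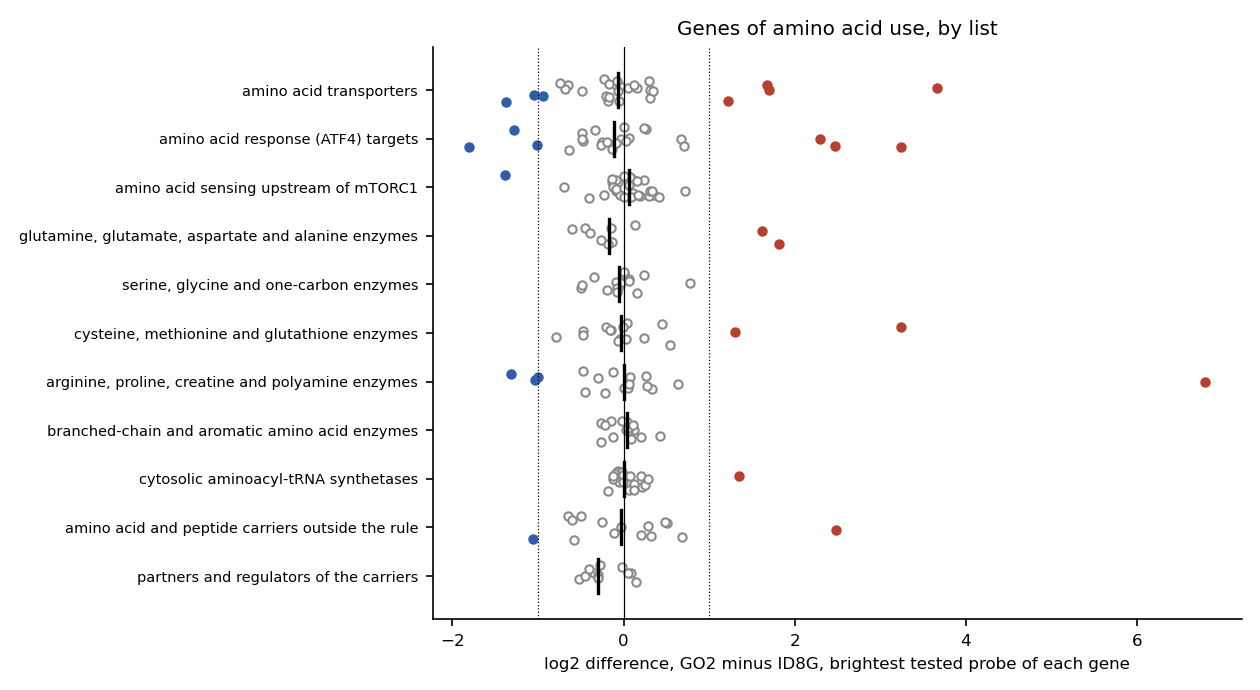
Difference between GO2 and ID8G cells (log2) of each tested gene, by its brightest tested probe, for the transporters and for 10 lists of genes that act on the same amino acids. Filled points are called genes, black bars are medians and dotted lines mark 2-fold. Slc7a11 was called through its dimmer probe and is drawn at the -0.94 of its brighter one. The medians lie between -0.30 and 0.07, and Gatm stands at the right edge, where its position rests on an ID8G level below background and its bound is 4.66.

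The calls of higher genes depended less on the processing than those of lower genes. All 4 higher genes were called in 18 of 20 alternative settings, with the exception of the methods' t-test after adjustment by Benjamini-Hochberg, where 0 transporter genes were called in either direction, and of the filter for signal on all 4 arrays, which removed Slc38a4 from the test. For that t-test the share of all genes called is not given here, so its 0 cannot be read as a trait of the transporters. All 3 lower genes were called in 11 of the 20 settings. Leaving out the second ID8G array left Slc7a3 as the only lower gene, and leaving out either GO2 array removed Slc7a11. With 2 arrays a line, an exact permutation test of a single gene cannot give a p below 0.333.

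**Figure D5:**
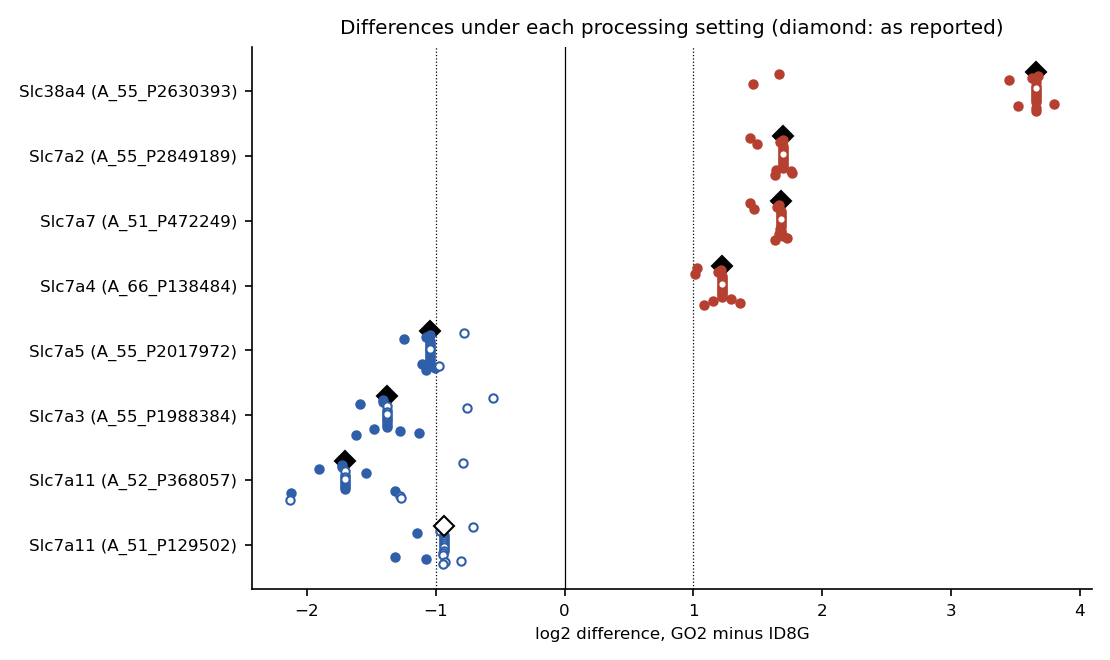
Difference between GO2 and ID8G cells (log2) of the called transporter probes and of the brighter Slc7a11 probe under each processing setting (points), with the reported value as a diamond. Filled points are called, open points are not, and dotted lines mark 2-fold. The points of the 4 higher genes stay right of 1, with the methods' t-test as the only open point in each, and those of the 3 lower genes cross the limit. With 1 value per gene, the brighter Slc7a11 probe is drawn at the mean of both probes of the gene.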

How the data were processed

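Total RNA of ID8G and GO2 cells, 2 arrays each, was labeled with Cy3 and hybridized to Agilent mouse arrays. The authors deposited scanner files with the intensity of every spot, from which Feature Extraction 11.5.1.1 had subtracted background without normalizing across arrays, on a design built on mm9. The deposited table of log2 values was scaled to the 75th percentile and centered on each probe, and it was used in 1 alternative. Of its per-sample columns, 0 were left out. All arrays came from 1 slide and 1 scan.

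Spots marked as outliers were left out and spots of a probe averaged. The 75th percentile was 627.2 to 675.1 in intensity. Gene names came from RefSeq accessions (GRCm38.p6), which matched 32989 of 56605 probes (58.3%), and 1 gene of the rule, Slc6a16, had no probe. All tested probes were fitted together (limma 3.58.1, R 4.3.3) and cell line was the sole term, after the procedure was tested on simulated data. A bound was set against the lowest level well above background. Figures were drawn with matplotlib 3.10.9.

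Named are all called members, the Slc3 chains and their light chains, the listed sodium-coupled carriers, the 5 members with the largest difference that were not called, and from each other list the called genes, up to 6. The members, lists and named genes were chosen with earlier results of these data known. Alternatives were normexp (offset 50), quantile, median and spike-in scaling, other filters and thresholds, an intensity trend, the methods' t-test, a replicate block, the deposited table, outlier spots kept, 1 value per gene and each array left out.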

Additional observations from a re-analysis of the deposited data

How the results depend on the processing

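With 3 genes called lower as reported, the count was 0 with normexp background correction, 1 with the filter for signal on all 4 arrays, 1 with the methods' t-test without adjustment (which also left 1 of 3 lower ATF4 targets and 1 of 2 higher enzymes of cysteine) and 0 with it after Benjamini-Hochberg adjustment, where the count of higher genes was also 0 instead of 4. Without a minimum fold, 9 genes were higher and 7 lower. By probe these were 10 higher and 9 lower of 40, beside 4831 higher and 5344 lower of all 28344 probes tested. Leaving out each array gave 4 higher genes each time and 1 to 3 lower genes, the lowest count being that without the second ID8G array, which lost Slc7a5 and Slc7a11. The array left alone is then assumed to vary like the other line. The median difference of -0.07 became -0.049 with normexp, -0.097 with median centering, -0.105 with 1 value per gene and -0.27 with scaling to the spike-ins, where the median of all probes moved from -0.02 to -0.23. Without the filter on dim probes Slc7a3 and Slc7a11 were lost and the dim Slc43a1 and Slc6a17 probes were called. The cause of these changes was not tested.

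With the replicate number as a block, the same 4 genes were called higher and the same 3 lower. The labels do not say what the numbers stand for. Deviations of same-numbered arrays from their line's mean correlated at 0.03, and the block changed no call. This does not show whether same-numbered arrays shared a preparation. No called result changed sign. Over 517 comparisons of the 26 named probes with their alternatives, 485 kept their side of the threshold, 19 lost the call and 13 gained it. With 1 value per gene, a gene with several probes had only their mean, so these comparisons are not all separate. The uncalled Slc38a6 probe A_55_P2525528 went from -0.07 to 0.02 with normexp. A slide block could not be fitted with 1 slide. Signal near background limits Slc7a3, Slc38a4 and the dimmer Slc7a11 probe.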
